A study of Ovis aries with 2 samples.

Results

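The keratins of the hair shaft were followed here across the skin cells of Hu sheep lambs with straight and with curly wool. They were chosen by name: 10 rows were looked for in the table of expression, and 8 of them were found among its 18161 genes, namely KRT35, KRT36, KRT32, KRT40 and K33 of type I and KRT84, KRT82 and KRT2.11 of type II. KRT85 and KRT31 have no row of that name and were not analysed under it, but V15 is named KRT31 in RefSeq and is described beside the 8 members. The study pooled the skin of 3 lambs of each wool type at day 3, mixed cells of dissected follicles with cells of whole skin, and made 1 library on the 10x Genomics platform from each pool. Pooling means that no value can be tied to a single lamb. The second wool type is curly in the sample titles and wavy in the protocol, and is called curly here. The straight library holds 6452 cells and the curly library 7585 cells.

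Wool is built from keratins that pair as type I with type II chains into intermediate filaments, which are then embedded in keratin-associated proteins (KRTAP). Hair keratins are made one after another as matrix cells of the bulb leave the cell cycle and move up through the precortex into the cortex, while other members of the family belong to the cuticle that surrounds the fibre. KRT35 is known as an early type I keratin of this sequence, KRT36 as a later one of the cortex, and KRT32, KRT40 and KRT82 as keratins of the cuticle. The inner root sheath (IRS), which moulds the growing shaft, uses a different set of keratins such as KRT71.

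Levels are given in CPM, the UMIs of a gene in a class of cells of 1 library, divided by all UMIs of these cells and scaled to 1000000, where a UMI marks 1 captured RNA molecule. Each wool type had 1 library, so the variation among lambs was not measured, no test was made, and each 95% interval covers counting error only. The straight library had 57956122 UMIs (median 7373.5 per cell) and the curly library 77634565 UMIs (median 7495 per cell). Cells were clustered without the 8 members, and the 22 clusters were named, where the rule allowed, by markers that did not include them. Clusters left unnamed held 18.3% of straight and 17.1% of curly cells, and classes were compared among the 13 named ones only. In all, 70 cell barcodes occurred in both libraries, and 7 straight and 4 curly hair shaft-like cells carried one of them. No level is compared between genes, since the files hold no measure of how well each transcript is captured.

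KRT35, KRT36 and KRT84 were concentrated in the hair shaft-like cells, a cluster of 251 straight and 404 curly cells in which 9 of 12 markers of the shaft, such as HOXC13 and SELENBP1, were found in at least 10% of cells. K33 and KRT2.11 were concentrated in a small cluster named wool cortex-like by KRTAP1-1, KRTAP1-3, KRTAP6-1 and LOC100526780 (KRT83 in RefSeq), with 21 straight and 13 curly cells. These clusters together made up 4.91% of all cells and held 82.6% of the UMIs of all members in the straight library and 80.8% in the curly library. Among the 13 named classes, 6 of the 8 members had their highest level in 1 of these 2 classes in both libraries, namely KRT35, KRT36, KRT84, KRT2.11, KRT82 and K33, although KRT82 rested on 2 straight UMIs and 1 curly UMI in the wool cortex-like class. The exceptions were KRT32 and KRT40.

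**Figure D1:**
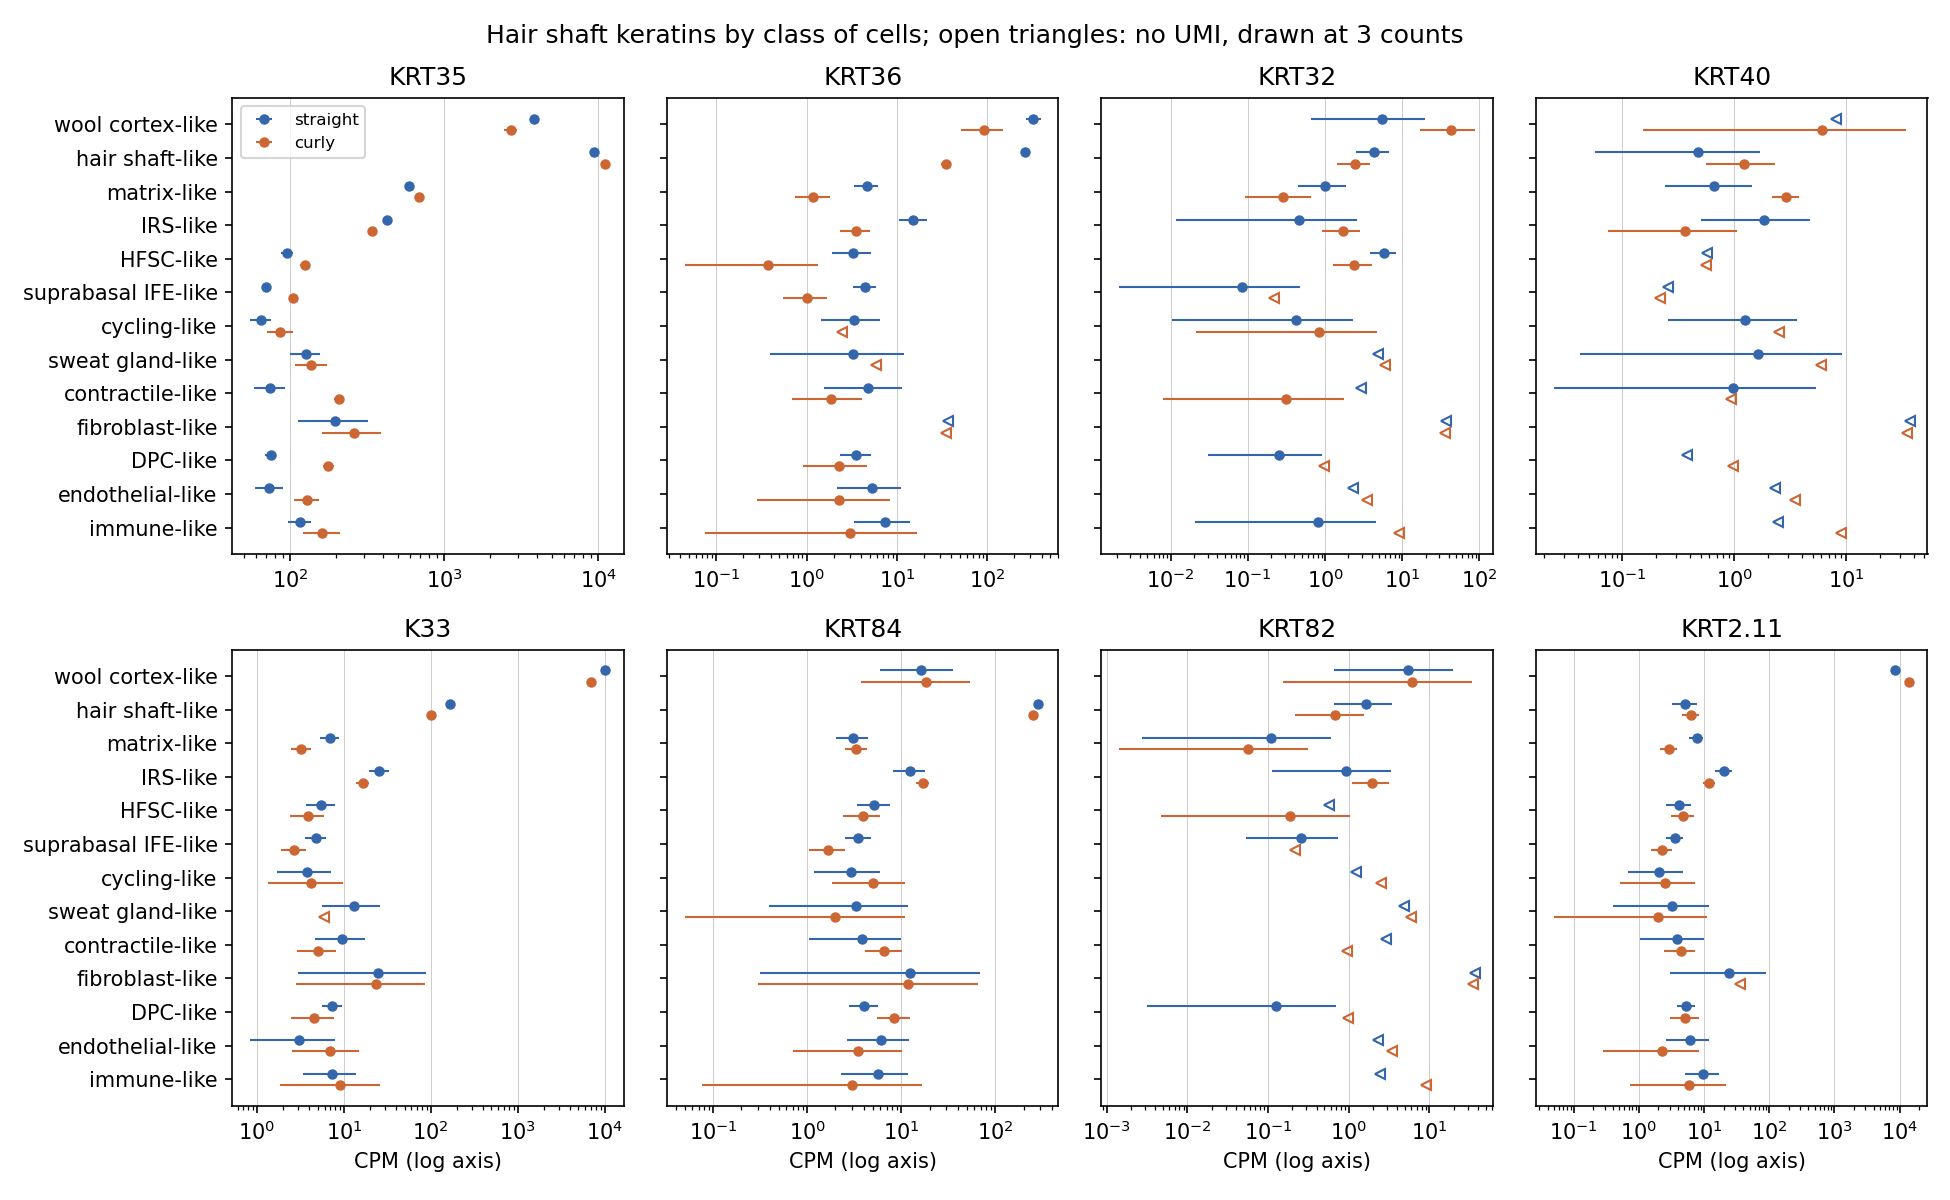
Level of each member in CPM (log axis) in 13 named classes of cells of the straight (blue) and the curly (orange) library, with exact Poisson 95% intervals and open triangles at 3 counts where no UMI was found. KRT35 and KRT84 stand highest in the hair shaft-like class, KRT2.11 and K33 in the wool cortex-like class.

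KRT35 was at 9361 CPM in straight and at 11144 CPM in curly hair shaft-like cells. Already in matrix-like cells, the dividing progenitors, it was at 596 and 688 CPM. In dermal papilla (DPC)-, endothelial-, immune- and fibroblast-like cells as one group, which should lack it, it was at 80.3 and 168 CPM, and this was taken as the level of free RNA. Matrix-like cells thus stood 7.42-fold above this background in straight and 4.09-fold in curly cells, and hair shaft-like cells 117-fold and 66.3-fold. KRT35 was detected in 97.6% of straight and 99.0% of curly hair shaft-like cells, but also in 34.4% and 45.5% of the background cells, whose median depth was 5318 and 4088 UMIs against 17662 and 19184 UMIs. A single UMI of KRT35 was thus common in cells outside the follicle epithelium.

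KRT84, a type II keratin, was at 286 CPM in straight and at 253 CPM in curly hair shaft-like cells, and at 3.08 and 3.34 CPM in matrix-like cells. The matrix-like values did not exceed its background of 4.57 and 7.11 CPM. Unlike KRT35, KRT84 was thus not above background in CPM before the hair shaft-like stage. It was detected in 4.42% of straight and 4.24% of curly matrix-like cells, and in 2.64% and 2.80% of background cells. Matrix-like cells had median depths of 15952 and 17524 UMIs, against 5318 and 4088 UMIs in background cells. At such unlike depths a low level of KRT84 in matrix-like cells can be neither shown nor excluded. The hair shaft-like cells held 84.9% of its straight and 84.2% of its curly UMIs. KRT36 was at 263 CPM in straight but at 35.1 CPM in curly hair shaft-like cells. In matrix-like cells it was at 4.62 and 1.19 CPM, beside a background of 4.19 and 2.29 CPM, and the intervals of both overlapped in straight (3.33 to 6.24 and 3.04 to 5.62 CPM) and in curly cells (0.736 to 1.82 and 1.10 to 4.22 CPM). The unlike depths limit this comparison of KRT36 in the same way as that of KRT84.

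K33, a type I wool keratin, was at 10037 CPM in straight and at 7062 CPM in curly wool cortex-like cells. In hair shaft-like cells it was at 166 and 101 CPM, which was 23.9-fold and 17.6-fold above its background. KRT2.11, a type II wool keratin, was at 8441 CPM in straight and at 13734 CPM in curly wool cortex-like cells. Its hair shaft-like level of 5.18 and 6.32 CPM stood beside a background of 6.09 and 4.59 CPM. The wool cortex-like cells held 91.1% of the straight and 86.8% of the curly UMIs of KRT2.11, although they were 0.325% and 0.171% of the cells. In the plot of levels by class, K33 thus has an intermediate step in hair shaft-like cells that KRT2.11 does not have at the level of the whole class.

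The wool cortex-like cells also kept the other members to different degrees. KRT35 was at 3816 CPM in straight and at 2709 CPM in curly wool cortex-like cells, below the hair shaft-like cells by 1.29 (95% interval 1.22 to 1.37) and 2.04 (1.91 to 2.18) on the log2 scale. KRT84 was at 16.2 and 18.3 CPM there, from 6 and 3 UMIs. KRT36 was at 325 and 91.3 CPM, above the hair shaft-like level by 0.30 (0.018 to 0.57) on the log2 scale in straight and by 1.38 (0.52 to 2.13) in curly cells. With all cells kept, the steps from hair shaft-like to wool cortex-like cells had the same direction in both libraries for KRT35, KRT84 and KRT36. The straight step of KRT36 turned without the 6% of cells with the highest doublet scores. KRT36 was then at 157 CPM in the 3 straight wool cortex-like cells left, against 260 CPM in straight hair shaft-like cells.

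The remaining members were rare. KRT82 had 18 UMIs in the straight and 25 UMIs in the curly library, and of these 2 and 16 UMIs lay in IRS-like cells and 7 and 5 UMIs in hair shaft-like cells. In the hair shaft-like cells, 6 of the 7 straight UMIs and all 5 curly UMIs of KRT82 came from 1 cell each, which in both libraries also had at least 5 UMIs of KRT84. KRT32 had 72 and 64 UMIs, and its hair shaft-like level was 4.24 (straight) and 2.42 CPM (curly). In straight hair shaft-like cells 10 of its 18 UMIs came from 1 cell, and 1 cell there had at least 5 UMIs of KRT32, KRT82, KRT84 and KRT36 alike. Of the IRS-like cells, whose median depth was 806 straight and 1060 curly UMIs, the cluster led by HBB and S100A3 had 12 UMIs of KRT82 and also 12 UMIs of KRT32 in curly cells, which is 10.7 CPM (5.54 to 18.7) for each. S100A3 was itself a marker of the hair shaft, which scored second for this cluster. The mean log2 ratio was 1.83 for the IRS markers and 0.86 for the hair shaft markers, so the name of this cluster is uncertain. The curly level of KRT32 was highest in wool cortex-like cells, at 42.6 CPM (17.1 to 87.8), but this rested on 7 UMIs in 3 cells, and the straight level there was 5.41 CPM (0.655 to 19.5) from 2 UMIs. KRT32 was also found in a cluster of hair follicle stem cell (HFSC)-like cells led by PTHLH and SFTPC, where KRT32 was at 6.24 CPM (4.12 to 9.09) from 27 UMIs in straight and at 3.21 CPM (1.38 to 6.32) from 8 UMIs in curly cells. Background cells held 3 UMIs of KRT32 in straight and none in curly, which there allows up to 0.688 CPM.

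KRT40 had its UMIs mainly outside the shaft. It had 69 UMIs in the curly library, of which 51, or 73.9%, lay in matrix-like cells, spread over 48 cells. Its matrix-like level was 2.89 CPM (2.15 to 3.80) in curly and 0.660 CPM (0.242 to 1.44) in straight cells, where it rested on 6 UMIs. In curly hair shaft-like cells it was at 1.21 CPM (0.553 to 2.30) from 9 UMIs. No UMI of KRT40 was found in the background cells of either library, which allows up to 0.285 CPM in the straight and 0.688 CPM in the curly ones.

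The path from matrix-like to hair shaft-like cells was then ordered by diffusion pseudotime, calculated on components from which the members had been left out, and cut into 5 parts of equal size. The path was rooted in the matrix-like cells, which were named in part by the proliferation gene PCNA, so a high level of PCNA at the start is partly built in. PCNA was at 351 (straight) and 475 CPM (curly) in the first part and at 35.4 and 45.9 CPM in the last. Of the 8 members, 7 were higher in the last than in the first part in both libraries, namely all but KRT40. Without the wool cortex-like cells the count was 6, since KRT2.11 left it. KRT40 was at 4.92 CPM (3.24 to 7.16) in the first and 1.42 CPM in the last part of the curly path, from 27 and 8 UMIs, and straight cells had 2 UMIs and 1 UMI. The order of these parts comes from gene expression and is not a measured time.

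KRT35 was higher in each successive part of the path. It was at 573, 717, 939, 2146 and 10449.8 CPM in the successive parts of the straight path. In the curly path the parts had 530, 731, 1376, 3277 and 11808 CPM. The 10 cells with most UMIs of KRT35 held 65.0% of its straight and 34.2% of its curly UMIs in the first part. In the second part they held 48.1% and 38.5%, so that the early straight levels leaned on few cells. KRT84 was at 2.03, 3.77, 5.11, 67.5 and 307 CPM in straight and at 2.37, 3.41, 6.54, 61.8 and 279 CPM in curly cells. Its values were low up to the third part and higher only from the fourth part on, in which hair shaft-like cells first made up a large share (85 of 193 straight and 145 of 288 curly cells). Of the transcription factors of the hair shaft, HOXC13, which drives hair keratin genes, was at 32.0 CPM in the first and 111 CPM in the last part in straight cells, and at 31.2 and 167 CPM in curly cells. FOXN1, a further factor of hair differentiation, was at 6.49 and 77.8 CPM in straight and at 7.11 and 43.2 CPM in curly cells. MSX2, a factor of the matrix, had 53.9 and 50.7 CPM in straight and 78.7 and 52.1 CPM in curly cells. LEF1, which acts in WNT signalling, was at 66.5 and 122 CPM in straight and at 68.7 and 135 CPM in curly cells, and DLX3 at 64.1 and 75.4 CPM and at 84.7 and 75.1 CPM. All these factors were among the markers that named the hair shaft-like class, and only the members were kept out of the components. Their values along the path are thus not independent of it.

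To see the order of the members within the shaft itself, the hair shaft-like cells alone were cut into 4 parts of equal size along the same pseudotime, a division that was chosen after the data had been seen. KRT35 was higher in each successive part, at 3947, 5883, 11107 and 15137 CPM in straight and at 5723, 7684, 12071 and 17838 CPM in curly cells. KRT84 had its highest level in the third part. It was at 74.5, 341, 568 and 137 CPM in straight and at 62.7, 224, 518 and 142 CPM in curly cells. KRT84 was thus lower in the fourth than in the third part in both libraries, while KRT35 was higher there.

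K33 rose clearly above its background level in CPM only late. It was at 7.90, 8.08, 45.9 and 544 CPM in the successive parts of the straight and at 5.58, 3.40, 13.1 and 368 CPM in those of the curly hair shaft-like cells. V15, a type I keratin, had 5.64, 2.69, 14.0 and 2035 CPM in straight and 5.58, 2.26, 19.6 and 1053 CPM in curly cells, and then 9185 and 3750 CPM in wool cortex-like cells. Unlike the members, V15 was not kept out of the components behind the pseudotime. KRT2.11 was at no more than 15.1 CPM in any part and library. In the fourth part its curly level of 15.1 CPM (10.1 to 21.7) lay above its background of 4.59 CPM (2.80 to 7.09). The straight level there was 11.9 CPM (6.49 to 19.9), with an interval that overlapped that of its background, 6.09 CPM (4.69 to 7.78). In both libraries these members thus reached their highest values in the order KRT84, then KRT35, then K33 and KRT2.11 with the wool cortex-like cells.

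**Figure D2:**
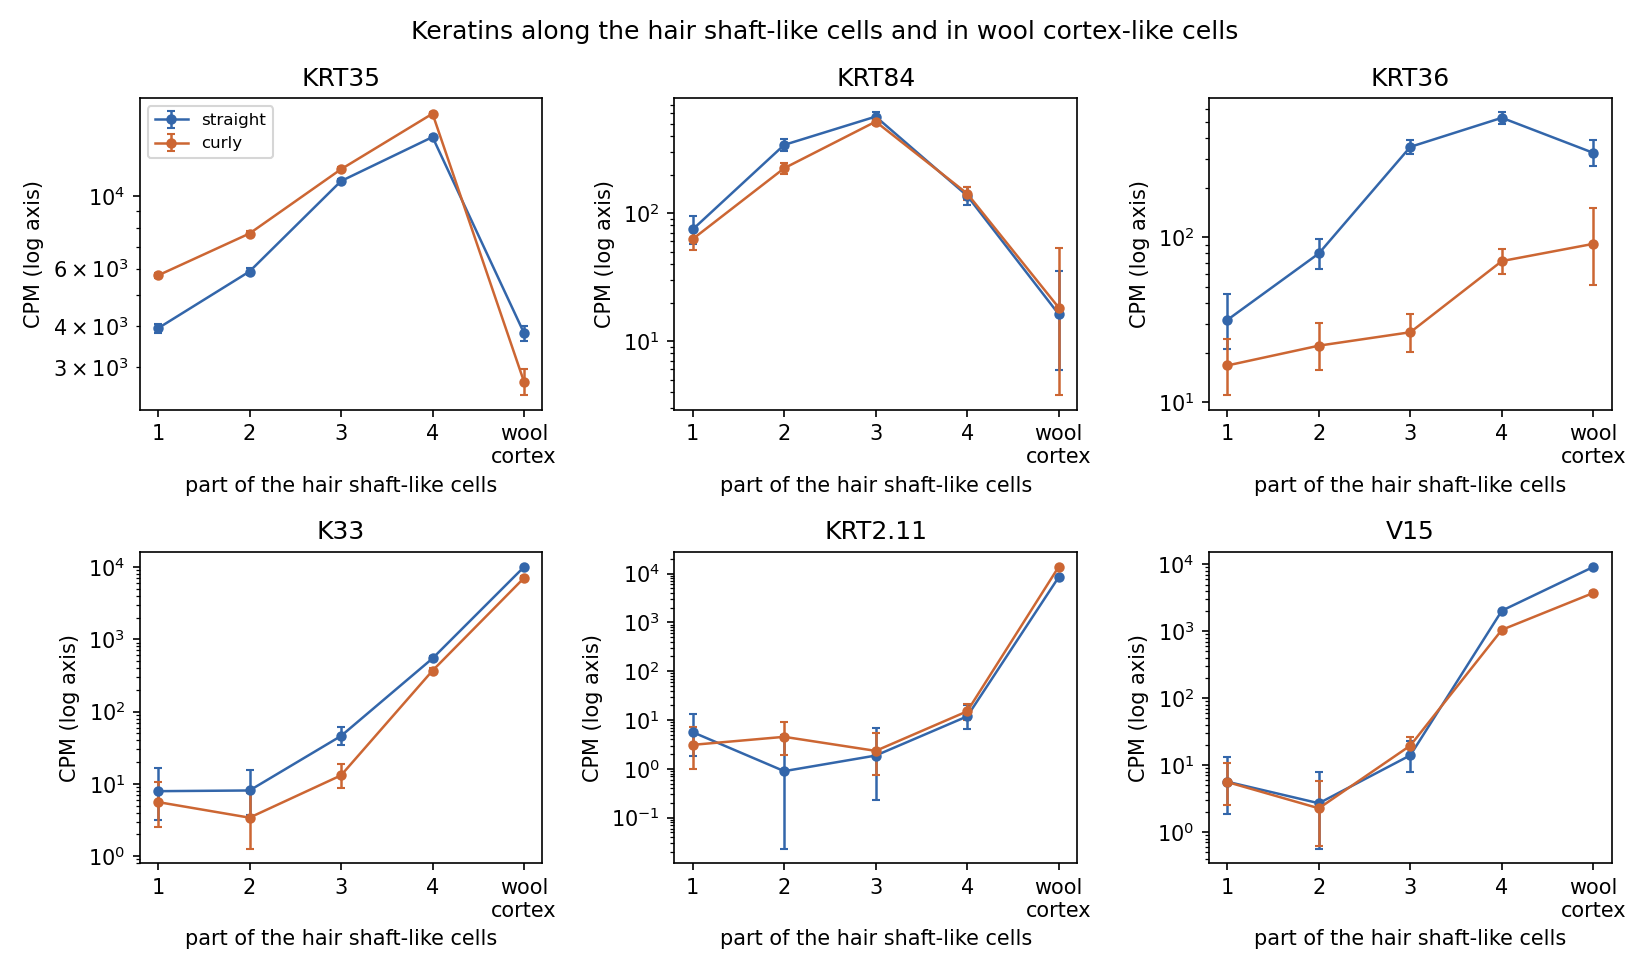
Levels in CPM (log axis) of 5 members and of V15 in 4 equal parts of the hair shaft-like cells and in wool cortex-like cells, for the straight (blue) and the curly (orange) library, with exact Poisson 95% intervals. KRT84 is highest in part 3, KRT35 in part 4, and K33, KRT2.11 and V15 in the wool cortex-like cells, while the curly values of KRT36 stay below the straight ones in every part.

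Single cells showed how unevenly the later members were distributed. KRT35 had at least 5 UMIs in 225 of 251 straight and 390 of 404 curly hair shaft-like cells. KRT84 had at least 5 UMIs in 41 straight cells (16.3%) and 77 curly cells (19.1%), and the 10 cells with most UMIs held 58.9% and 39.0% of them. K33 had at least 5 UMIs in only 7 straight and 8 curly hair shaft-like cells. The 10 cells with most UMIs of K33 held 94.5% and 95.1% of its hair shaft-like UMIs, so that its class level was set by a few cells.

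Cells with at least 5 UMIs of K33 were so few that little overlap with KRT84 could be seen either way. Of the 41 straight hair shaft-like cells with at least 5 UMIs of KRT84, none had 5 UMIs of K33, against 3.33% of the other cells. In the curly library 2 of 77 had (2.60%), against 1.83% of the others. Seen from K33, 2 of its 8 curly cells had at least 5 UMIs of KRT84, against 18.9% of the other cells, so that the curly cells did not set these genes apart. KRT84 and KRT36 met in straight cells, where 15 of the 39 cells with at least 5 UMIs of KRT36 (38.5%) had as many of KRT84, against 12.3% of the other cells. In curly cells 3 of 12 did, against 18.9% of the others. These counts depend on depth and on how many UMIs each gene had, and are given as a description.

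**Figure D3:**
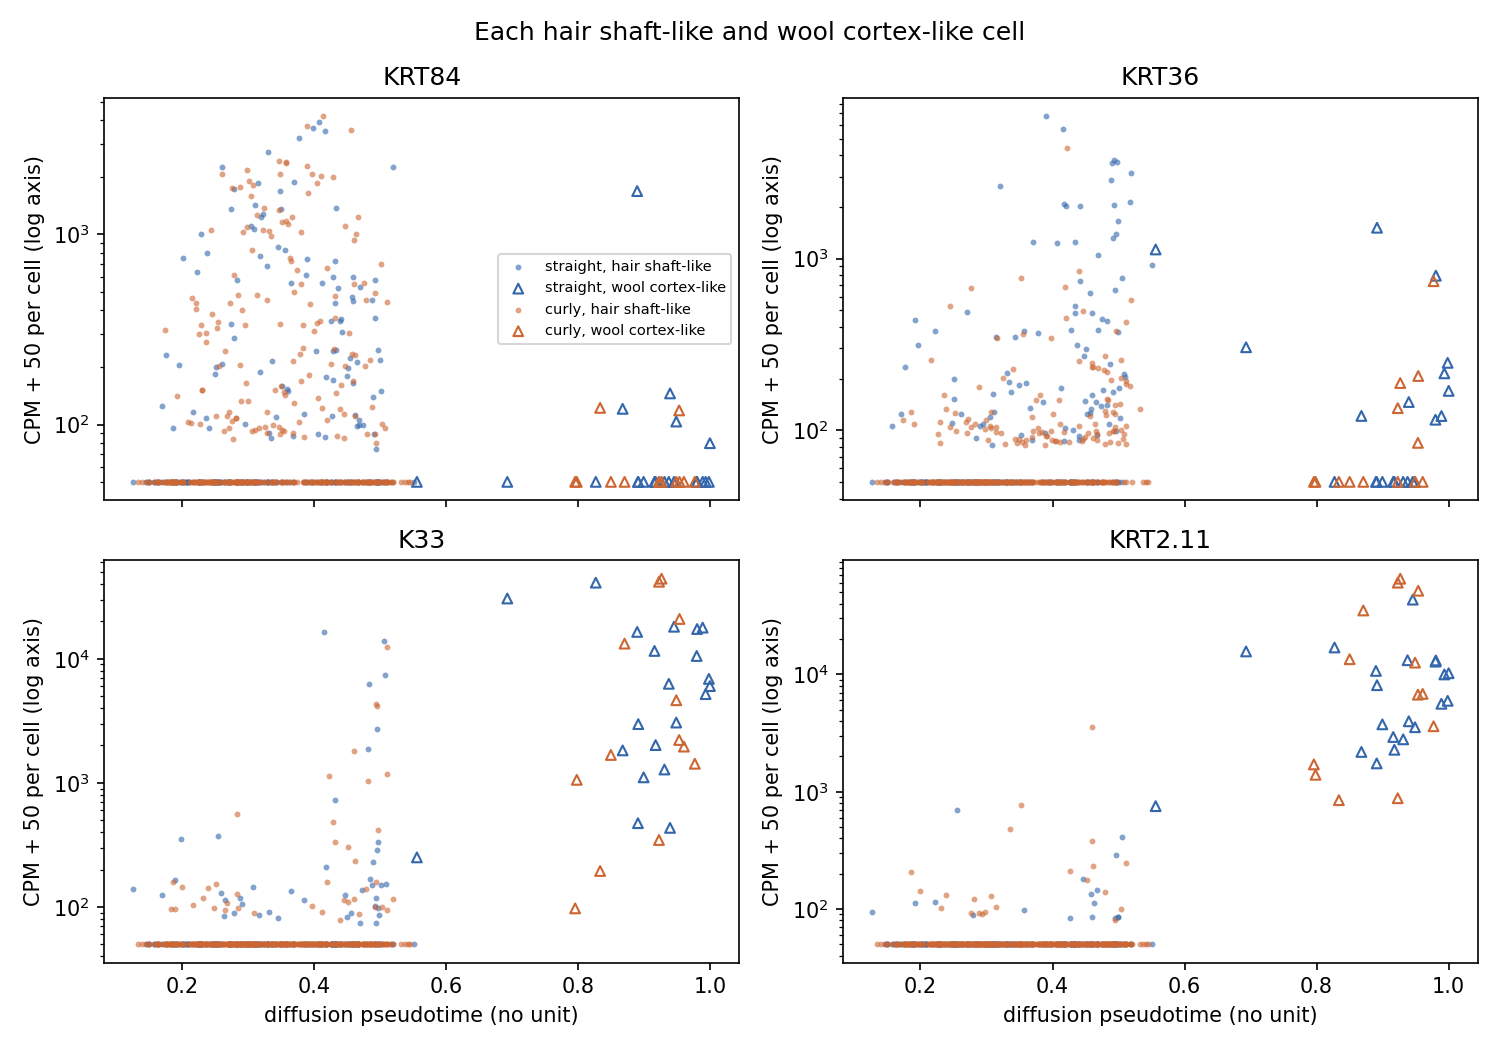
CPM + 50 per cell (log axis) of KRT84, KRT36, K33 and KRT2.11 against diffusion pseudotime, with dots for hair shaft-like and triangles for wool cortex-like cells of the straight (blue) and the curly (orange) library. Cells without a UMI lie at 50. K33 is high in a few hair shaft-like cells near the end of their range, and the wool cortex-like cells lie beyond it, at median pseudotimes of 0.931 in straight and 0.923 in curly cells.

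The wool cortex-like cells lay beyond the hair shaft-like cells, from a pseudotime of 0.556 in straight and 0.796 in curly cells, where hair shaft-like cells ended at 0.551 and 0.545. Every wool cortex-like cell had UMIs of KRT2.11 and of K33. Among the straight cells, KRT2.11 ranged from 703 to 43360 CPM around a median of 5905 CPM, and among the curly cells from 797 to 65395 CPM around a median of 6771 CPM. The ranges of the libraries thus overlapped widely. K33 ranged from 201 to 40989 CPM in straight and from 47.4 to 44103 CPM in curly cells, around medians of 5972 and 1910 CPM. KRT35 was absent from 5 of 21 straight cells and from 1 of 13 curly cells of this group. Doublets touch this group unequally: 18 of the 21 straight but 0 of the 13 curly cells were among the 6% of cells with the highest doublet scores, and the part of doublets in these values was not tested. In the 3 straight cells left, KRT2.11 was at 8026 CPM and K33 at 6589 CPM. With only those 13 straight and 6 curly cells that were among the 8285 cells with most genes detected, KRT2.11 was at 8352 and 3895 CPM and K33 at 10008 and 1143 CPM, so that the direction of KRT2.11 between the libraries turned.

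The comparison of the wool types asks which members differ between the straight and the curly library. Over all cells, 4 members had a higher level in curly (KRT35, KRT84, KRT82 and KRT40) and 4 a lower one. Of the 8 members, 1 was at least 2-fold higher in curly, KRT40, while 4.62% of the 15593 genes with at least 20 UMIs were. A further 2 members were at least 2-fold lower in curly, KRT36 and K33, while 9.77% of these genes were. The median log2 ratio of the members was -0.27, and that of all genes -0.19. In a bulk sum over all cells, fewer cells of a type and less RNA per cell cannot be told apart, and the curly library held more matrix-like (14.3% against 9.83%) and hair shaft-like cells (5.33% against 3.89%) and fewer wool cortex-like cells.

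KRT36 differed most. Over all cells it was at 25.5 CPM in straight and at 4.86 CPM in curly, 5.25-fold lower (95% interval 4.68 to 5.89), from 1477 and 377 UMIs. K33 was at 82.4 and 29.1 CPM, 2.83-fold lower in curly (2.69 to 2.98). KRT35 was at 876 and 1334 CPM, 1.52-fold higher in curly (1.51 to 1.54). KRT84 was at 24.7 and 28.8 CPM, 1.17-fold higher in curly (1.09 to 1.25). KRT2.11 was at 59.1 and 33.5 CPM, and KRT40 at 0.328 and 0.889 CPM. KRT32 was at 1.24 and 0.824 CPM, and KRT82 at 0.311 and 0.322 CPM with an interval of the log2 ratio from -0.88 to 1.01. Without the 6% of cells with the highest doublet scores, the log2 ratio over all cells was 1.22 for KRT2.11 and 0.35 for K33, the opposite direction. As a mean of per-cell CPM it was 0.31 for KRT2.11 and 0.71 for KRT32, which turned as well. KRT82 turned to -0.53 in the 8285 cells with most genes, and the count of members higher in curly was between 3 and 6 over the alternatives. The 10 cells with most UMIs held 85.6% of the straight and 85.7% of the curly UMIs of KRT2.11.

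Within the hair shaft-like class KRT35 and K33 differed less and KRT36 more than over all cells. At least 2-fold lower in curly was 1 of the 6 members with at least 20 UMIs, KRT36, while 4.32% of the 10088 genes compared were, and no member was at least 2-fold higher, while 3.68% of these genes were. KRT35 was 1.19-fold higher in curly (log2 ratio 0.25, interval 0.23 to 0.27), and KRT84 was 1.13-fold lower (1.05 to 1.22). K33 was 1.65-fold lower in curly (1.48 to 1.83), with log2 ratios from -1.51 to -0.30 over the alternatives. KRT2.11 had a log2 ratio of 0.29 with an interval from -0.47 to 1.09, and KRT32 one of -0.81 with an interval from -1.84 to 0.22, so that no difference was detectable at this depth. The sum of all members was higher in curly by 0.19 on the log2 scale, but KRT35 alone held 39751 of the 42837 straight and 82924 of the 85895 curly UMIs of the members in this class. Over all cells its share was 81.9% in straight and 93.1% in curly. Without KRT35 the summed level of the members had a log2 ratio of -0.86, a sum chosen after the data had been seen.

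**Figure D4:**
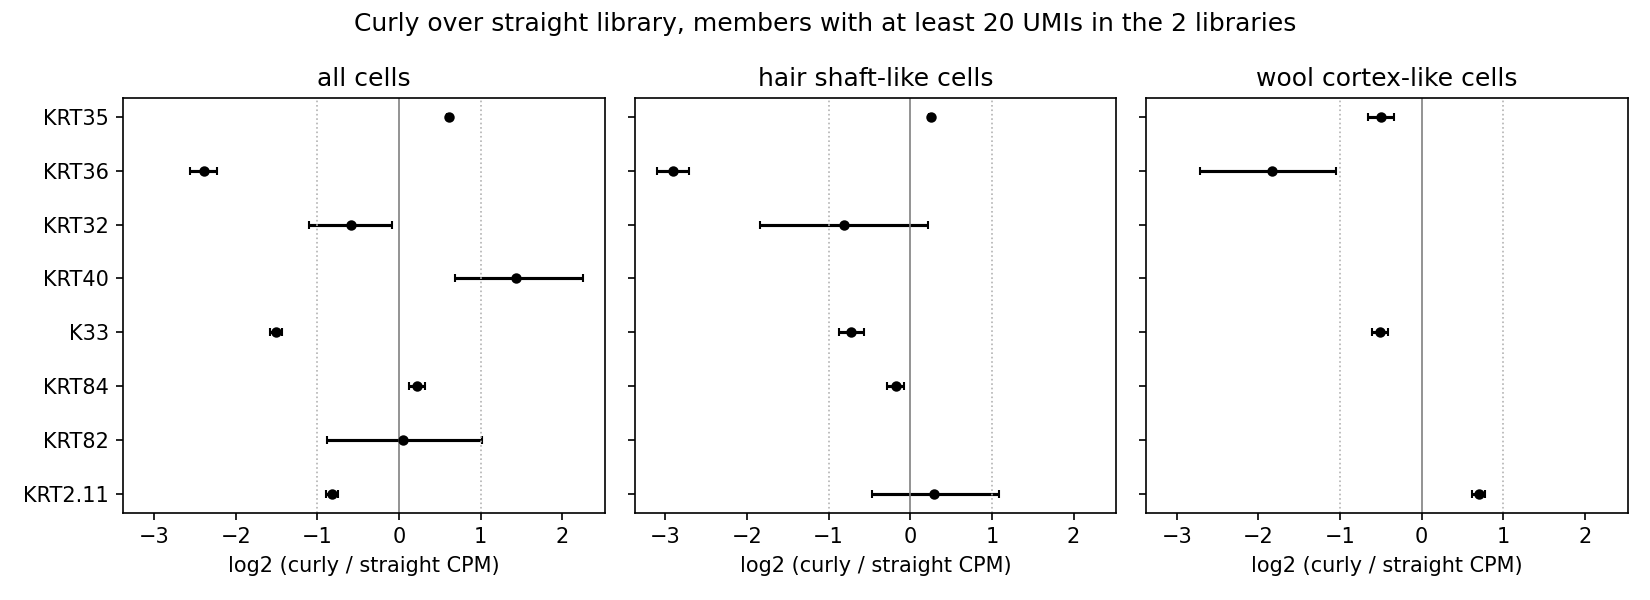
Log2 ratio of the curly over the straight CPM of each member with at least 20 UMIs, in all cells, in hair shaft-like and in wool cortex-like cells, with exact 95% intervals of counting error. Dotted lines mark a 2-fold difference. KRT36 lies left of the lower line in each panel, while KRT35 lies within 2-fold. KRT84 lies within 2-fold in all cells and in hair shaft-like cells, and had too few UMIs to be drawn for wool cortex-like cells. Of the 21 straight wool cortex-like cells, 18 were among the 6% of cells with the highest doublet scores.

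KRT36 was 7.51-fold lower in curly than in straight hair shaft-like cells (6.55 to 8.62), from 1118 and 261 UMIs. Of the 10088 genes compared in this class, 18 had a lower log2 ratio, and of the 880 genes with at least as many UMIs as KRT36 none had. The level was lower in curly in each part of the shaft, and over the alternatives the log2 ratio of the class lay between -2.97 and -2.51. In the 4 successive parts of the hair shaft-like cells KRT36 was at 31.6, 79.9, 353 and 529 CPM in straight and at 16.7, 22.1, 26.6 and 71.8 CPM in curly cells, which is 1.89-, 3.62-, 13.3- and 7.37-fold lower. For part 1 the interval was 1.07 to 3.33, from 28 straight and 27 curly UMIs. Of the straight UMIs, 1 cell held 57 of 89 in part 2, and 1 cell held 154 of 377 in part 3. The straight values of parts 2 and 3 thus leaned on single cells. In wool cortex-like cells KRT36 was 3.55-fold lower in curly, from 120 and 15 UMIs. Without the 6% of cells with the highest doublet scores, 3 straight and 13 curly wool cortex-like cells were left. KRT36 was at 157 and 91.3 CPM in them.

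KRT36 was lower in curly in the share of cells with at least 5 UMIs and in the median of these cells. Since the same cutoff picked the cells, share of cells and level per cell cannot be told apart by it. At least 5 UMIs of KRT36 were found in 39 of 251 straight (15.5%, exact interval 11.3% to 20.6%) and 12 of 404 curly hair shaft-like cells (2.97%, 1.54% to 5.13%). In these cells the median was 13 UMIs in straight and 8 UMIs in curly. With each cell thinned to 2000 UMIs, which left out 18 straight and 11 curly cells, KRT36 was detected in 16.3% of straight and 5.60% of curly cells, against 36.7% and 29.0% without thinning. Thinned DPC-like cells had it in 1.01% and 0.501%, against 2.26% and 0.765% without thinning at median depths of 6087 and 4521 UMIs. KRT84 in the same thinned hair shaft-like cells was detected in 19.7% of straight and 16.5% of curly cells. The 10 straight hair shaft-like cells with most UMIs of KRT36 held 60.8% of them, and the 10 curly cells 39.8%, and which of the 3 pooled lambs a cell came from is not known from the labels.

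The neighbours of KRT36 did not share this difference to the same extent. In the RefSeq annotation, KRT35 lies directly between KRT32 and KRT36, and 3 genes lie between KRT36 and V15, in the cluster of type I hair keratins. V15 was 2.04-fold lower in curly hair shaft-like cells (1.92 to 2.16), from 2421 and 2079 UMIs, while KRT35 was slightly higher. KRT84 lies directly beside KRT82, and LOC100526780 directly beside KRT2.11, in the cluster of type II keratins. Reads of such similar genes can be split or lost between copies, since only reads that map to 1 place are counted by the pipeline the authors used, and the size of such losses is not known here.

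A list of keratin-associated and other hair keratin genes was set beside the members. Of its 9 genes, 6 had at least 20 UMIs over all cells, and of these 3 were at least 2-fold lower in curly (9.77% of all genes) and none at least 2-fold higher (4.62% of all genes), with a median log2 ratio of -1.18. LOC100526780 was at 218 CPM in straight and at 76.3 CPM in curly (log2 ratio -1.52). V15 was at 105 and 38.2 CPM (-1.47), and KRTAP6-1, a glycine- and tyrosine-rich protein of the cortex, at 14.8 and 2.89 CPM (-2.36). The 10 cells with most UMIs held 80.5% of the straight and 71.0% of the curly UMIs of LOC100526780, and 82.1% and 66.1% of those of KRTAP6-1. Of their straight UMIs, 8949 and 730 lay in the 21 wool cortex-like cells, 18 of which were among the 6% highest doublet scores. The ratios of the list were not recalculated without these cells. The smallest differences were those of KRTAP1-3 (-0.42), a high-sulphur protein, and LOC101112404 (-0.72), named KAP3.2 in RefSeq. In hair shaft-like cells 5 of the 9 genes had at least 20 UMIs, and 4 of them were at least 2-fold lower in curly (4.32% of all genes compared there). The median was -1.49, while all genes of that class had a median of 0.0037. This median is the value of LOC101112404, from 16 straight and 10 curly UMIs (-2.79 to -0.26). KRTAP6-1 had 14 and 7 UMIs there (-3.36 to -0.40), and a further gene had 11 and 11 UMIs (-2.16 to 0.54). In wool cortex-like cells LOC100526780 had a log2 ratio of -0.19, V15 of -1.29, KRTAP6-1 of -1.28 and KRTAP1-3 of 1.25, so that the sign was not shared.

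Keratins of the IRS were set beside the members. KRT71, KRT25 and KRT27 were among the markers that named the IRS-like class, so their high level in that class follows from the naming. KRT71 was at 6305 CPM in straight and at 8904 CPM in curly IRS-like cells, and at 52.7 and 82.8 CPM in the hair shaft-like class, below its background of 84.4 and 246 CPM. Hair shaft-like cells were deeper than background cells, with medians of 17662 and 19184 UMIs against 5318 and 4088 UMIs. At such unlike depths a low level of KRT71 in hair shaft-like cells can be neither shown nor excluded. KRT25 was at 8083 and 10683 CPM and KRT27 at 1764 and 3040 CPM in IRS-like cells. KRT35 was at 426 and 342 CPM in IRS-like cells, where 10 cells held 61.6% of the straight and 28.3% of the curly UMIs. The basal keratin KRT5 was at 539 and 550 CPM in the hair shaft-like class, beside 549 and 879 CPM in the background cells. The mesenchymal marker VIM was at 27.1 and 13.4 CPM there, beside 4838 and 5342 CPM in those cells.

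Genes with the most similar pattern were sought over the 22 clusters in both libraries, that is, over 44 points that share their libraries, as a Pearson correlation of log2(CPM + 5) among 13196 genes. For KRT35 they were GNG4 (0.93), LOC100141295 (0.93) and LOC101112805 (0.91). For KRT36 they were V15 (0.92), HEPHL1 (0.91) and GPRC5D (0.91), and for KRT84 LOC101106282 (0.84), LOC101111440 (0.84) and KRT35 itself (0.83). KRT2.11 was most like BIIIB4, LOC114116855 and LOC114116854 (0.99, 0.98 and 0.98), and K33 most like LOC100526782, LOC100526780 and LOC101103772 (0.97, 0.97 and 0.96). KRT32 was most like LOC114113904, LOC101106558 and LOC114116970 (0.85, 0.84 and 0.84). Among the members, KRT2.11 and K33 were the most alike (0.92) and KRT84 and KRT2.11 the least (0.32).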

How the data were processed

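The authors aligned the 10x reads to Oar_rambouillet_v1.0 and counted UMIs with Cell Ranger (version 3.0.2 in the submitters' processing notes). The deposited values are on a natural log scale, ln of 1 plus UMIs scaled to 10000 per cell, for 18161 genes in 14037 cells, where the series text gives 15830 cells, and 8285 cells have at least 1750 genes. The comparisons were planned for counts, and UMIs were therefore calculated back: 100% of 28552149 values above 0 were whole within 0.01. The scaling was read from the file.

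Libraries were integrated by anchors in Seurat 5.3.0 (R 4.3.3; 2000 variable genes without the members, 30 dimensions) and clustered at resolution 0.3, the lowest in steps of 0.1 with at least 19 clusters. A cluster took the class whose markers had the highest mean log2 ratio over other clusters with 5 CPM added, if that was at least 1.5, with at least 3 markers in at least 10% of its cells and no other class with more markers among its 10 leading genes. Scrublet called 0.427% of cells as doublets, too few to rely on, and no cell was removed. Pseudotime was calculated in scanpy 1.11.5 (30 neighbours, 10 components, rooted in the matrix-like cells), with Python 3.11.15, pandas 2.3.3, matplotlib 3.10.9, scipy 1.17.1 and numpy 2.4.6. Intervals are exact 95% intervals (Poisson, Clopper-Pearson, binomial split of 2 sums); a count of 0 allows up to 3 counts, or 0.0518 CPM over the straight and 0.0386 CPM over the curly library. No test between wool types was made, and the ratios were tested on simulated data. Alternatives were other cell filters, scalings, summaries and clusterings.

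Members, lists and markers were chosen with earlier results of these data known. Named are the 8 members, genes of the fixed list with at least 20 UMIs (the 3 with most UMIs and the 2 largest and smallest ratios), the 3 genes most like each member with at least 100 UMIs, KRT71, KRT25, KRT27, KRT5, VIM, HOXC13, FOXN1, MSX2, LEF1 and DLX3; PCNA, SELENBP1, PTHLH, SFTPC, HBB and S100A3 were named after their values were seen. RefSeq names come from ARS-UI_Ramb_v3.0, another build, which matched 7 of 8 members (not K33) and 9 of 9 list genes, and served for names and gene order only. No sequence is shown.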

Additional observations from a re-analysis of the deposited data

Results flagged for a closer look

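KRT2.11 was the only member whose step from matrix-like to hair shaft-like cells had opposite signs in the libraries. The log2 ratio of hair shaft-like over matrix-like cells was -0.57 (95% interval -1.33 to 0.14) in straight and 1.13 (0.53 to 1.73) in curly cells. The underlying values were 7.69 and 5.18 CPM in straight and 2.89 and 6.32 CPM in curly cells, from 70, 22, 51 and 47 UMIs, beside background levels of 6.09 and 4.59 CPM. The difference between the libraries was not tested.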

How the results depend on the processing

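The log2 ratio of curly over straight for the sum of all members over all cells was 0.42. It was 0.38 with the 8285 cells that had most genes detected, 0.56 without the 6% of cells with the highest Scrublet scores, 0.66 as a mean of per-cell CPM and 0.61 under median-of-ratios scaling, in which the median gene, at -0.18, is set to 0. In hair shaft-like cells it was 0.19, against 0.17 as a mean of per-cell CPM and 0.21 with the members kept among the variable genes. The share of member UMIs in hair shaft- and wool cortex-like cells was 81.4%, against 79.3% without the highest Scrublet scores, 82.4% at resolution 0.8 and 75.7% with the members kept. The values of 79.3% and 75.7% cover the hair shaft-like class alone, since no cluster was named wool cortex-like there and its cells lay in an unnamed cluster. With the cluster names kept, alternatives chosen after seeing the data, it was 83.4% for the cells with most genes and 81.7% without the highest Scrublet scores. Over all cells KRT2.11 turned to 1.22 and K33 to 0.35 without the highest Scrublet scores, and KRT2.11 to 0.31 and KRT32 to 0.71 as a mean of per-cell CPM, while KRT82 turned to -0.53 with the cells with most genes, and the cause was not tested. The count of members higher in curly was 4, with 3 to 6 over the alternatives. KRT35, KRT36, KRT84 and KRT40 kept their direction in each alternative run. With the cells with most genes and without integration, no cluster could be named hair shaft-like, and values that need this class were not obtained there. The cause was not tested, but 498 of 583 and 643 of 655 hair shaft-like cells lay in 1 unnamed cluster with all wool cortex-like cells left. Genes with few UMIs (KRT32, KRT82, KRT40) are limited by depth. No paired analysis was possible because each wool type has 1 library.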

Other observations

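Within the hair shaft-like cells, genes that varied with a member from cell to cell were listed after the data had been seen, as a Pearson correlation over 251 straight and 404 curly cells, which share depth and library and are not replicates. KRT35 went with MGST3 (0.72 in straight and 0.73 in curly cells), LOC100141295 (0.67 and 0.78) and SELENBP1 (0.72 and 0.56), and was lowest where SERPINH1, a collagen chaperone, was high (-0.71 and -0.69). KRT84 went with LOC101110467 (0.50 and 0.59) and PDZK1IP1 (0.55 and 0.45), and had its most negative value with GPNMB (-0.34 and -0.40). KRT36 went with V15 (0.43 and 0.31) and with DSG4, a desmosomal cadherin of the hair shaft (0.41 and 0.35). K33 went with LOC100526782 (0.75 and 0.66), LOC100526780 (0.67 and 0.62) and GPRC5D (0.62 and 0.59).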
